A study of Mus musculus with 14 samples.

Results

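Liver of young adult females was compared with liver of juvenile females of the same outbred stock. F8 denotes female CD-1 mice at 8 wk and F3 denotes female CD-1 mice at 3 wk, and the labels name no treatment or altered allele in either group. The comparison rests on 2 of the 14 arrays of the series, those whose channels held an F8 and an F3 pool, and these arrays were chosen by their channel labels alone. RNA of 5 livers was pooled at 3 wk and of 6 livers at 8 wk, and array 1 and array 2 received independent pools with exchanged dyes: on array 1 F3 was red and F8 green, and on array 2 F8 was red and F3 green. The other arrays compared males with females at 3, 4 and 8 wk (M3, M4, M8 and F4 denote the other groups) or ages within a sex, and M8/M3, F8/F4 and, for a check of scan day, M3/F3 and M8/F8 are used beside F8/F3 here.

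Each value is the ratio of F8 to F3 signal in liver RNA hybridized competitively to an Agilent whole mouse genome array. A pool averages its animals, so the spread between the arrays is a spread between pools and not between mice, and p-values rest on such spreads, pooled over all 14 arrays after a dye term, so an SE need not follow how far apart the F8/F3 arrays lie. Replicate, pool, dye orientation and slide coincide within F8/F3 and cannot be told apart. The time of day at which livers were taken and the litters are not given in the sources used here.

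Between weaning and young adulthood the liver completes its growth. Hepatocytes of the newborn and juvenile divide, and in the adult nearly all of them have left the cell cycle. Fetal and growth-promoting genes are shut off over this time, and blood cell formation, which occupies the fetal liver, has moved to the bone marrow. Enzymes of drug, steroid and bile acid metabolism reach adult levels, and many of them come to differ between the sexes when the pituitary starts to secrete growth hormone in male pulses or in the near-continuous female pattern. A circadian clock also drives many liver genes, so their levels depend on the hour of collection.

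Each array held 43,020 spots outside the controls, which belonged to 39,429 probes, and no spot was saturated on either F8/F3 array. On arrays 1 and 2, 69.2% and 67.0% of red spots and 67.5% and 67.0% of green spots were well above background, a flag set by the scanner software. A gene was called up or down regulated at an adjusted p below 0.05 in limma with a ratio above 1.5 or below 0.667 where F3 or F8 was well above background on both arrays (bright, for short). Of 14,751 named bright genes, 749 were up regulated (5.08%) and 985 were down regulated (6.68%), 11.8% in all. Lists were described with 1 probe per gene and are read against these shares. The median log2 ratio of all bright named genes was 0.017. Among genes called that were bright in F3 and in F8, 138 fell and 28 rose by over 4-fold, and 39 fell and 4 rose by over 8-fold. Of the 1,734 genes called, 1,733 changed the same way on both arrays, which was largely fixed because calls rest on the mean of both. Over all bright named genes the ratios of both arrays had a Pearson correlation of 0.826. Counted with unnamed probes, 1,284 genes rose and 1,284 fell (5.94% each), and without array 2 the count of increases was 840. The F8/F3 arrays fitted alone, with no other array to estimate the spread, gave no call in limma at an adjusted p below 0.05, and 1,168 increases and 1,227 decreases had an unadjusted p below 0.05.

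**Figure D1:**
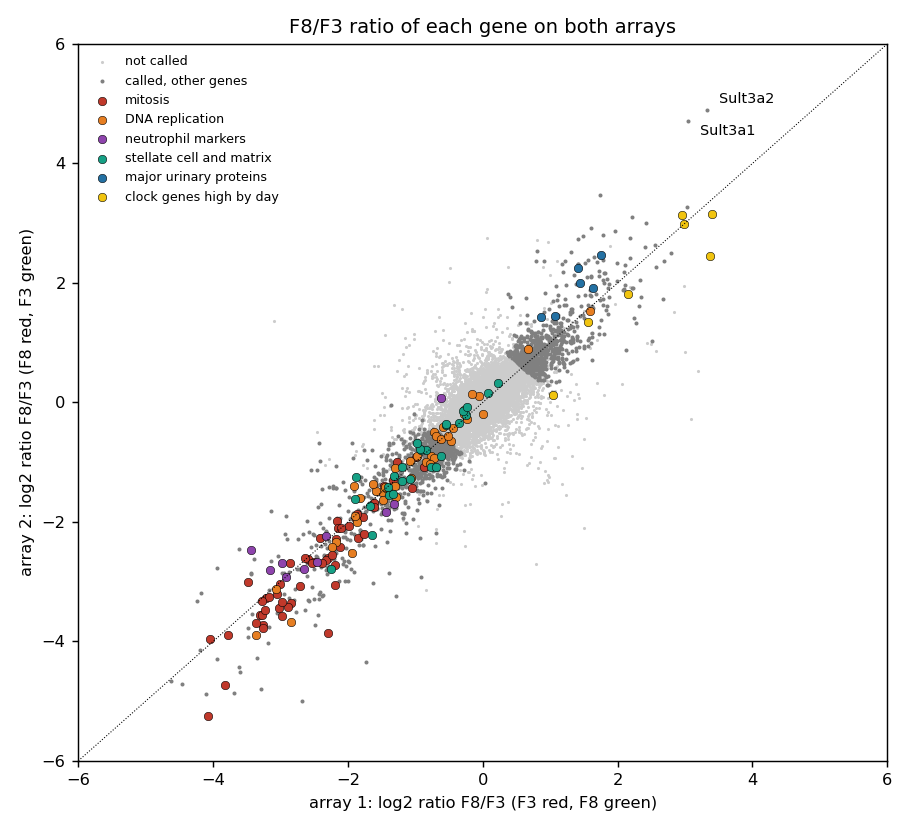
Log2 F8/F3 ratio of each bright named gene on array 1 (x axis) against array 2 (y axis), with members of 6 gene lists in colour, other called genes in dark grey and the dotted line marking equal ratios. Mitotic genes reach the lower left near the line and day-phase clock genes the upper right, while Sult3a1 and Sult3a2 lie above it, their ratio being larger on array 2.

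Mitotic genes fell throughout. All 54 bright members of a list of genes of mitosis were down regulated in F8, against 6.68% of all genes, with a median log2 ratio of -2.61. Cdk1, the kinase that drives entry into mitosis, gave signals of 1,266 and 2,334 in F3 and 152 and 252 in F8 on arrays 1 and 2 (arbitrary units). Both F8 signals were far below both F3 signals, with a log2 ratio of -3.13 (SE 0.081, adjusted p = 5.37e-05). Mki67, the proliferation marker, read 2,908 and 5,126 in F3 and 368 and 504 in F8, and Ccna2, the cyclin of S and G2 phase, read 1,977 and 2,740.2 in F3 and 212 and 283 in F8. The F8 values of both again lay below both F3 values, at log2 ratios of -3.16 (SE 0.21, adjusted p = 0.000337) and -3.25 (SE 0.22, adjusted p = 0.000331). Cdc20, an activator of the anaphase-promoting complex, read 6,109 and 10,952 in F3 and 616 and 925 in F8, 10.8-fold lower in F8. Bub1, a kinase of the spindle checkpoint, had the lowest log2 ratio of any called gene measured in both groups, -4.28 (SE 0.32, adjusted p = 0.000479), with signals of 447 and 786 in F3 and 31.8 and 29.7 in F8. Birc5 (survivin, of the chromosomal passenger complex) and Ccnb1 (cyclin B1) had -3.49 and -3.52, and all 3 bright probes of each fell. The smallest decreases on the list were those of Cenpa, the centromeric histone, at -0.95, and Spc24, a kinetochore subunit, at -0.97.

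3 mitotic genes had faded from the F8 arrays. Aurkb, the kinase of the chromosomal passenger complex, read 75.5 and 162 in F3 and 4.49 and 4.24 in F8, and F8 was well above background on neither array. Its ratio is therefore a lower bound: Aurkb was at least 2.97-fold lower in F8 (adjusted p = 0.000397). Cdc25c, the phosphatase that activates Cdk1, was at least 1.85-fold lower, and Ncapg, a condensin subunit, at least 1.76-fold lower. With these at their bounds, the median of the list was -2.51. Without array 1 the number of members called was 54, and without array 2 it was 52, Dlgap5 and Ncapg having lost their calls. In whole liver RNA, fewer dividing cells and less RNA per cell cannot be told apart.

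Genes of DNA replication fell too, with exceptions. Of 42 bright members, 28 fell and 2 rose, with a median log2 ratio of -1.10. Pcna, the sliding clamp of DNA polymerase, read 11,009.9 and 14,296 in F3 and 6,697 and 7,526 in F8, and Mcm2, of the replicative helicase, read 806 and 925 in F3 and 269.8 and 332 in F8. F8 was below F3 on both arrays for both, with log2 ratios of -0.82 (SE 0.049, adjusted p = 0.000238) and -1.53 (SE 0.066, adjusted p = 0.000108). Rrm2, the small subunit of ribonucleotide reductase, fell further, with signals of 3,246 and 4,729 in F3 and 692 and 885 in F8 and a log2 ratio of -2.32 (SE 0.078, adjusted p = 5.81e-05). Uhrf1, which recruits the maintenance DNA methyltransferase, and Exo1, an exonuclease of mismatch repair, had ratios of -3.26 and -3.10, and Cdc6, a licensing factor, was at least 3.18-fold lower. The helicase subunits Mcm2 to Mcm7 all fell, from -1.03 for Mcm7 to -2.25 for Mcm6. Mcm10, a replication factor outside that ring, went the other way, with signals of 4,017 and 3,408 in F3 and 12,044 and 9,797 in F8 and a log2 ratio of 1.55 (SE 0.22, adjusted p = 0.00494). The probes of Pole, the catalytic subunit of polymerase epsilon, disagreed, the brighter falling by 2.55-fold and the other being called up. Orc1 and Pold1 lost their calls without either array.

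Regulators of G1 changed in part. Of 23 bright members, 9 fell and 2 rose, with a median log2 ratio of -0.42. Foxm1, the transcription factor of mitotic genes, read 217 and 354 in F3 and 43.0 and 50.9 in F8 and was down regulated at -2.57 (SE 0.25, adjusted p = 0.00126). Ccne2 and Ccne1, the E cyclins of the G1/S transition, had ratios of -2.09 and -1.66. E2f1, E2f2, E2f7 and E2f8, factors of S phase transcription, fell, whereas Rbl2 (p130), a pocket protein of quiescent cells, rose by 0.68. Cdkn1a (p21), an inhibitor of cyclin-dependent kinases, had signals of 1,137 and 1,237 in F3 and 218 and 451 in F8 and a ratio of -1.92 (SE 0.21, adjusted p = 0.00172), but its other bright probe gave 0.069. The second probe of E2f7 gave 0.15. Ccnd1 (cyclin D1) had log2 ratios of -0.63 and 0.01 on arrays 1 and 2 and Myc -0.39 and -0.024, and neither was called. Cdkn2b lost its call without either array and E2f8 without array 1.

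**Figure D2:**
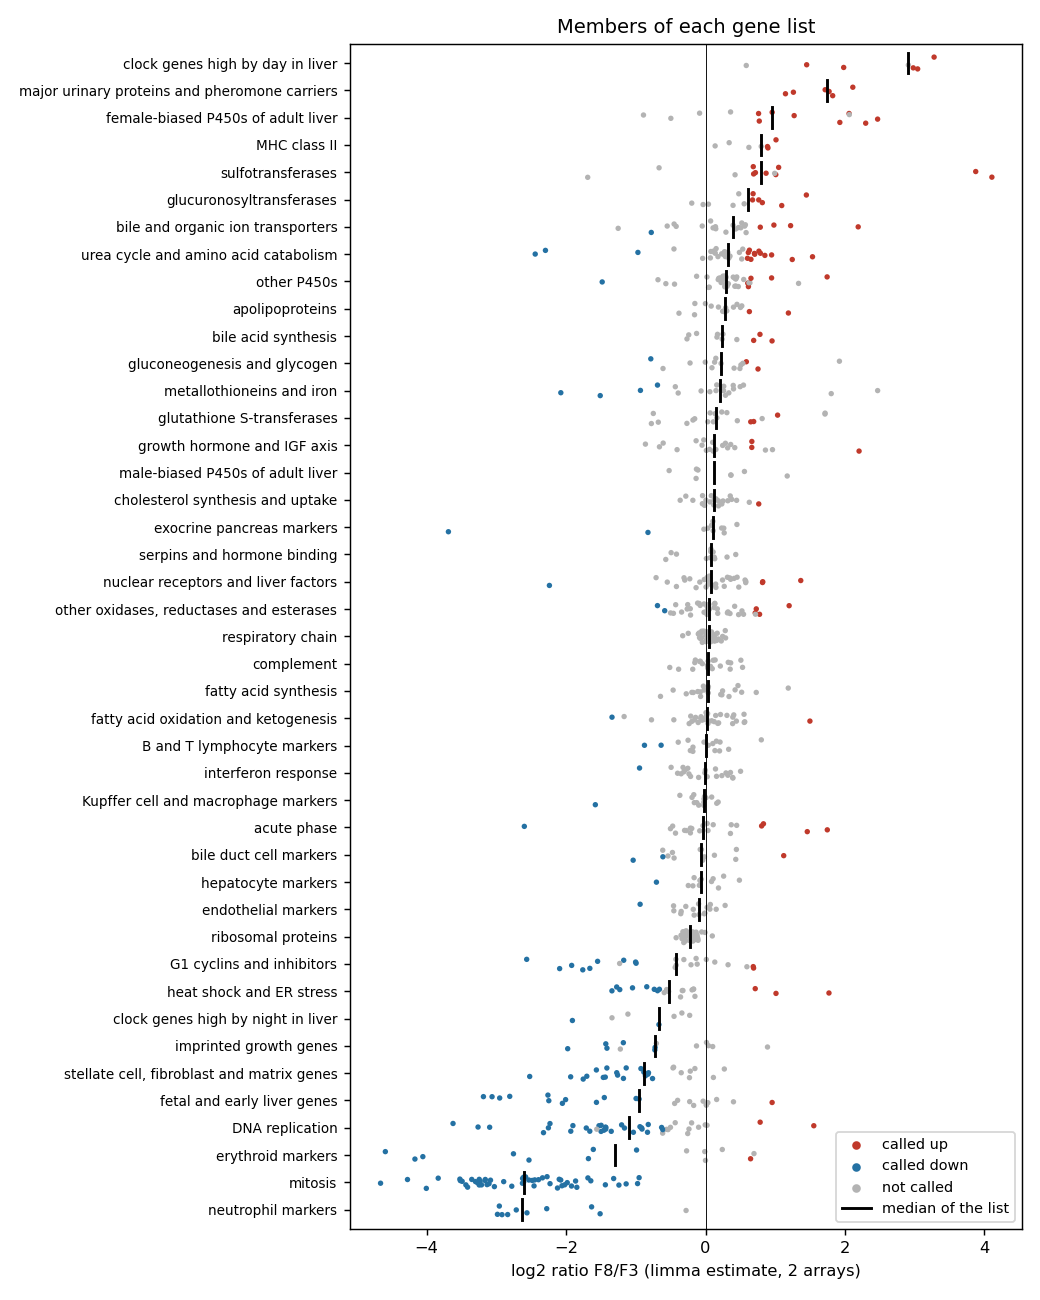
Log2 F8/F3 ratio of every bright member of each gene list, with 1 point per gene coloured by its call and the median of each list as a bar. The lists of neutrophil markers, mitosis, erythroid markers and DNA replication have the lowest medians, day-phase clock genes and major urinary proteins the highest, and most metabolic lists are centred near 0.

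Promoter sequence shows what members of these lists shared beside their change. The window searched ran from 250 bases before to 50 bases after the transcription start of RefSeq genes (GRCm38.p6), on both strands. The cell cycle homology region (CHR, TTTGAA) and the CCAAT box are the letters known from promoters of mitotic genes, and TTTCGCGC and TTTGGCGC are E2F sites known from promoters of replication genes. Both CHR and CCAAT letters were found in 29 of 44 mitosis genes with a promoter here (65.9%), in 10.6% of other genes called down, in 8.1% of genes called up and in 8.97% of all 27,025 promoters. E2F letters were found in 13 of 34 replication genes (38.2%) and in 0.929% of all promoters. They were found in 2.16% of other genes called down, 1.72% of genes called up and 1.48% of bright genes not called. Such matches describe letters and not bound sites. The stretches shown were picked because they held such letters, so they are examples and not typical promoters. The stretches shown are the 130 bases before the start of 4 mitotic genes and of Mcm6, each read 5′ to 3′ on the strand of the gene: Cdk1 (chr10:69352913-69353042, minus strand), Cdc20 (chr4:118437344-118437473, minus strand), Ube2c (chr2:164769799-164769928, plus strand), Mki67 (chr7:135716380-135716509, minus strand) and Mcm6 (chr1:128359706-128359835, minus strand). Capitals mark CHR and CCAAT letters in the mitotic genes, where TTCAAA and ATTGG are the same letters read from the opposite strand, and E2F letters in Mcm6.
Cdk1: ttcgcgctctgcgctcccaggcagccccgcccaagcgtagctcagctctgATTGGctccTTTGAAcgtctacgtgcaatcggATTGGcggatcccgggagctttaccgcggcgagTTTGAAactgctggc
Cdc20: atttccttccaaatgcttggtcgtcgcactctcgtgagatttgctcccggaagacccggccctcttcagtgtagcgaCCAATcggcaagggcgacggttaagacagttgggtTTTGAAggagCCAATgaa
Ube2c: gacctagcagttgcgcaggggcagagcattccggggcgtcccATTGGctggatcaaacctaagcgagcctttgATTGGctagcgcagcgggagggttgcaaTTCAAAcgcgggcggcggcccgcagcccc
Mki67: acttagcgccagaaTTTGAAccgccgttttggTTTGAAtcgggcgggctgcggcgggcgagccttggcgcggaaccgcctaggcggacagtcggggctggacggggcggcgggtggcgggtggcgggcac
Mcm6: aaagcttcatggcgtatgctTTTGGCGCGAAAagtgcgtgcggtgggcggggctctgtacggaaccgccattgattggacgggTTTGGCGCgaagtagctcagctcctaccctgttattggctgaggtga

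Cdk1 and Cdc20 each held both motifs within this stretch. In Ube2c, which encodes the E2 enzyme of the anaphase-promoting complex and fell 9.85-fold, a CHR match and 2 CCAAT matches lay on the opposite strand. Mki67 had only CHR letters in the part shown. Plk1, another mitotic gene looked up but not shown, held CCAAT letters and no CHR letters in its stretch. Of replication genes looked up, Mcm2, Mcm3, Mcm5, Rrm1 and Rrm2 gave no stretch with E2F letters. Mcm6, which fell 4.77-fold, held E2F letters and no CHR letters there. It also held CCAAT letters on the opposite strand, left in lower case. CCAAT letters, with or without CHR, were found in 77.3% of mitosis genes, 58.8% of replication genes and 41.1% of all promoters.

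Imprinted growth genes and genes of fetal liver formed the next group of decreases. Of 13 bright imprinted genes, 6 fell and 0 rose by limma, with a median log2 ratio of -0.72 (-0.71 with Dlk1 at its bound). Above 0, 1 had an unadjusted p below 0.05, and error-weighted averages and 4 other alternatives called 1 up. Mest, a paternally expressed gene of growing tissues, read 3,808 and 6,034 in F3 and 1,080.5 and 1,372 in F8, clearly lower in F8 on both arrays, with a ratio of -1.98 (SE 0.14, adjusted p = 0.000411) and all 3 bright probes called down. Cdkn1c (p57), a maternally expressed cell cycle inhibitor, read 692 and 761 in F3 and 372 and 518 in F8 and had a ratio of -0.72 (SE 0.076, adjusted p = 0.00153). Dlk1, a preadipocyte factor, was well above background in F3 only and at least 1.17-fold lower in F8, a call lost with normexp and with error-weighted averages. Igf2, the fetal growth factor, gave discordant ratios of -0.29 and -2.16 and was not called. Plagl1, a zinc finger factor of the imprinted network, fell by 2.66-fold at its brightest probe, but 2 other probes gave 0.20 and 0.14. Grb10, an adaptor that restrains insulin signalling, lost its call without array 2.

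Among genes of the fetal and early postnatal liver, 12 of 23 fell and 1 rose, with a median log2 ratio of -0.95. Lpl, lipoprotein lipase, read 57,848 and 81,021 in F3 and 8,374 and 9,337 in F8. Both F8 signals were several times lower, with a ratio of -2.95 (SE 0.093, adjusted p = 5.37e-05). Gpc3, a growth-restraining glypican of the cell surface, read 1,232 and 2,347 in F3 and 214 and 276 in F8 and had a ratio of -2.81 (SE 0.14, adjusted p = 0.000145), and Spink1, a trypsin inhibitor, read 206 and 286 in F3 and 26.2 and 27.2 in F8, a ratio of -3.19 (SE 0.33, adjusted p = 0.00156). Afp, alpha-fetoprotein, was uneven between the F3 pools, with signals of 309 and 1,797 in F3 and 127 and 191 in F8 and log2 ratios of -1.29 and -3.24. F8 was below F3 in both pairs, at -2.26 (SE 0.54, adjusted p = 0.0353), but the call was lost without array 2 and with the replicate number or slide as a block. Igf2bp3, an mRNA-binding protein of fetal tissues, had a ratio of -2.25 that was not called without array 1. Tff3, a secreted trefoil peptide, had a ratio of -3.06 and lost its call without either array. Tmem98 was the only member called up, by 0.96. Without arrays 1 and 2 in turn, 8 and 8 members were called down.

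Erythroid, neutrophil and matrix genes, of other cells that liver can hold, fell as well. Most markers of further cell types, like most genes, were not called. The part of these cells in the changes was not tested. Of 14 bright erythroid genes, 8 fell and 1 rose, with a median log2 ratio of -1.30, or -0.93 with faded genes at their bounds. Only 3 of the 8 were bright in both groups. The summed signal of the list went from 221,358 and 252,753 in F3 to 100,482 and 124,917 in F8. Epb42, Rhd and Gata1, the erythroid transcription factor, were well above background in F3 alone, and were at least 2.06, 3.90 and 1.97-fold lower in F8. Hba-a1, alpha globin, was bright in both, with signals of 99,379.7 and 98,974 in F3 and 46,225 and 54,003 in F8. Its ratio was -0.99 (SE 0.14, adjusted p = 0.00498), and it was not called without array 1. Alas2, of erythroid heme synthesis, and Epor, the erythropoietin receptor, were not called, at -0.27 and 0.24. Car1, carbonic anhydrase of red cells, rose by 0.65, a call lost without array 2 and with normexp background correction.

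Neutrophil granule genes fell steeply. Of 10 bright members, 9 fell, with a median log2 ratio of -2.64 (-2.42 with Mmp8 at its bound), and the same number was called without either array. S100a8, a subunit of calprotectin, read 2,764 and 3,786 in F3 and 365 and 501 in F8. Its ratio was the same on both arrays, -2.92 and -2.92, and -2.92 (SE 0.081, adjusted p = 5.37e-05) in the fit. Ltf (lactoferrin), Ngp and Mpo (myeloperoxidase) had ratios of -2.84, -2.96 and -2.71, while Elane, neutrophil elastase, gave -0.63 and 0.069 and was not called. Summed signals went from 11,050.3 and 16,614 to 2,324 and 3,427.

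Matrix genes of stellate cells and fibroblasts fell too, 19 of 27 with none up regulated by limma or error-weighted averages (1 lay above 0 at an unadjusted p below 0.05) and a median log2 ratio of -0.88. Col1a1, of collagen I, read 11,638 and 17,613 in F3 and 3,719 and 3,773 in F8, and Col3a1, of collagen III, read 36,825 and 40,027 in F3 and 11,554 and 12,035 in F8. F8 was lower on both arrays in each case, at -1.93 (SE 0.25, adjusted p = 0.00333) and -1.70 (SE 0.12, adjusted p = 0.000349). Col5a2 had the lowest ratio of the list, -2.52, and Eln, elastin, had -1.75. Of markers of the stellate cell itself, Des (desmin) gave -0.30 and -0.14, Lrat, the retinol-storing enzyme, gave 0.075 and 0.15, and neither was called. The summed signals were 223,120 and 269,905 in F3 and 122,659 and 139,429 in F8.

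Calls in the lists of other cell types are read against the share of all genes, 11.8%. The Kupffer cell, endothelial and hepatocyte lists lay below that share, and the lymphocyte and bile duct lists lay above it. The differences from that share were not tested. Marco, a scavenger receptor, was the only one of 15 Kupffer cell and macrophage genes called (4 had an unadjusted p below 0.05), with signals of 2,510.1 and 3,508 in F3 and 952 and 1,034 in F8 and a ratio of -1.58 (SE 0.18, adjusted p = 0.00221), while Adgre1 (F4/80) and Clec4f had ratios of -0.37 and 0.0064. Of 17 endothelial genes only Lyve1 was called (-0.94, lost without either array), although 12 lay below 0 and 9 had an unadjusted p below 0.05, and Pecam1 and Kdr gave -0.36 and 0.023. Of 16 lymphocyte genes, Vpreb1 and Vpreb3, of the surrogate light chain of early B cells, were called down at -0.64 (lost without array 2) and -0.88 (lost without either array), while Cd3e and Ms4a1, of mature T and B cells, were not called. Of 14 bile duct genes, Sox9 and Prom1 fell (-1.04 and -0.61, both lost without either array) and Cftr, the chloride channel, rose by 1.12, and Krt19 had -0.47. Hepatocyte markers were bright in both groups: Alb read 277,056 and 176,293 in F3 and 152,443 and 227,504 in F8 and Ttr 184,088 and 142,668 in F3 and 138,134 and 151,543 in F8. Neither of these was called, and of 12 such genes Ahsg, fetuin-A, alone was called, at -0.70 (SE 0.07, adjusted p = 0.00125), although its ratios were -1.37 and -0.039 and the call was lost without the dye term, with normexp and with error-weighted averages.

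**Figure D3:**
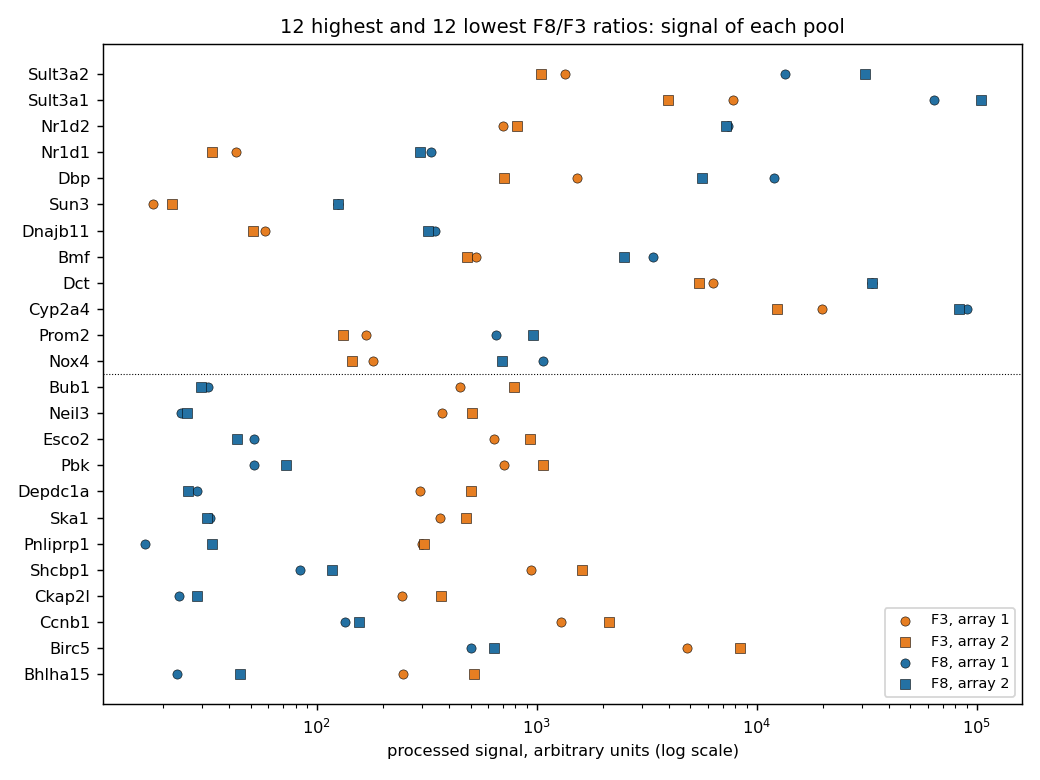
Processed signal (log scale, arbitrary units) of the 12 called genes with the highest and the 12 with the lowest F8/F3 ratio, with 1 point for each pool (orange F3, blue F8, circles array 1, squares array 2). For every gene both F8 points lie on the same side of both F3 points.

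Female-biased cytochrome P450s, enzymes that oxidize drugs and steroids and are named for their higher level in adult females, rose in F8. Of 13 bright members 8 were up regulated, against 5.08% of all genes, and 0 were down regulated by limma, with a median log2 ratio of 0.96. Below 0, 2 had an unadjusted p below 0.05, and error-weighted averages and a fit of 6 group means called 1 down. Cyp2a4, a testosterone 15-alpha-hydroxylase, read 19,753 and 12,376 in F3 and 89,959 and 83,326 in F8. The F8 signals were above both F3 signals, with a ratio of 2.47 (SE 0.27, adjusted p = 0.00176). Cyp2b13 and Cyp2g1 rose by 2.30 and 2.06. Cyp17a1, the steroid 17-hydroxylase and lyase, read 271 and 301 in F3 and 993 and 1,188 in F8 and had a ratio of 1.93 (SE 0.17, adjusted p = 0.00084). Cyp2b9, a form of the 2B subfamily, read 8,855 and 6,872 in F3 and 19,135 and 18,543 in F8, at 1.27 (SE 0.25, adjusted p = 0.0178), but lost its call without either array. Cyp3a44 was high in both groups, with signals of 23,742 and 28,686 in F3 and 24,991 and 44,862 in F8, and was not called (0.36). Cyp4a14, a fatty acid hydroxylase, had -0.96 and -0.82 and was not called either. Without arrays 1 and 2 in turn, 6 and 5 members were called up. The Cyp3a16 probe is counted among the 8, and its call was lost without either array. The study describes its cross-hybridization with Cyp3a11 as substantial, and found a larger sex difference of Cyp3a16 by qPCR than on the array.

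The same genes can be set beside M8/M3, the change over the same ages in males, whose pools are not shared with F8/F3. The difference of both log2 ratios (F8/F3 minus M8/M3) was tested in the same fit and called at an adjusted p below 0.05 and over 1.5-fold. The arrays of both comparisons lay on different slides scanned on different days. The difference was also taken from the M3/F3 and M8/F8 arrays, which share the pools of these 4 groups and were all scanned on day 1. There it kept its sign for 256 of the 258 named genes with a higher female ratio and 242 of the 243 with a lower one. Of these, 222 and 207 were called there too. The same difference of the same pools was measured again, so for genes picked by it the sign was largely fixed. The counts bear on slide and scan day and not on differences between pools. Over all named genes the difference was called above 0 in 258 (1.73%) and below 0 in 243 (1.63%) of 14,902 tested, and 7.78% of genes rose and 10% fell in M8/M3. Of the 749 genes that rose in F8/F3, 491 also rose and 19 fell in M8/M3, and of the 985 that fell, 794 also fell and 7 rose.

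Of 13 female-biased P450s, 11 had a higher F8/F3 than M8/M3 ratio, the median of the latter being -1.76. The list was drawn up from genes higher in adult females than in adult males, which largely fixes that direction, so the count is a description. Cyp2b9 fell in males, at -3.97, and the difference was 5.24 (SE 0.36, adjusted p = 0.00177). Cyp2a4 had a male ratio of 0.14, which was not called, and a difference of 2.33 (SE 0.38, adjusted p = 0.0231). For Cyp3a44 the female ratio was 0.36 and the male ratio -6.46, a difference of 6.82 (SE 0.36, adjusted p = 0.000968).

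Male-biased P450s gave no call in females. Of 8 bright members none was called in F8/F3 by the limma model used throughout, 4 had an unadjusted p below 0.05, 2 were called up without array 1, 2 with no fold threshold, 1 in a fit of 6 group means and 1 with error-weighted averages (an alternative that weights the arrays by the scanner software's own error of each ratio), and the median log2 ratio was 0.13 against 1.62 in M8/M3. 5 of them had a lower female than male ratio, a direction largely fixed by choosing genes higher in adult males. Cyp4a12a, the arachidonic acid hydroxylase of male liver and kidney, read 2,440.4 and 3,775 in F3 and 4,759 and 1,617 in F8. Its ratio was above 0 on array 1 and below 0 on array 2 (0.96 and -1.22), and the difference from the male ratio of 4.23 was -4.36 (SE 0.79, adjusted p = 0.0309), not called with slide as a block. Cyp4a12b, a near-identical gene whose probe may share target with it (this was not tested), gave 0.98 and -1.25. Cyp2d9, testosterone 16-alpha-hydroxylase, had -0.47 and -0.58 in females and 1.86 in males. Cyp7b1, oxysterol 7-alpha-hydroxylase, read 8,428 and 7,697 in F3 and 16,299 and 20,219 in F8, higher in F8 on both arrays, but was not called (1.17 (SE 0.46, adjusted p = 0.158)).

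**Figure D4:**
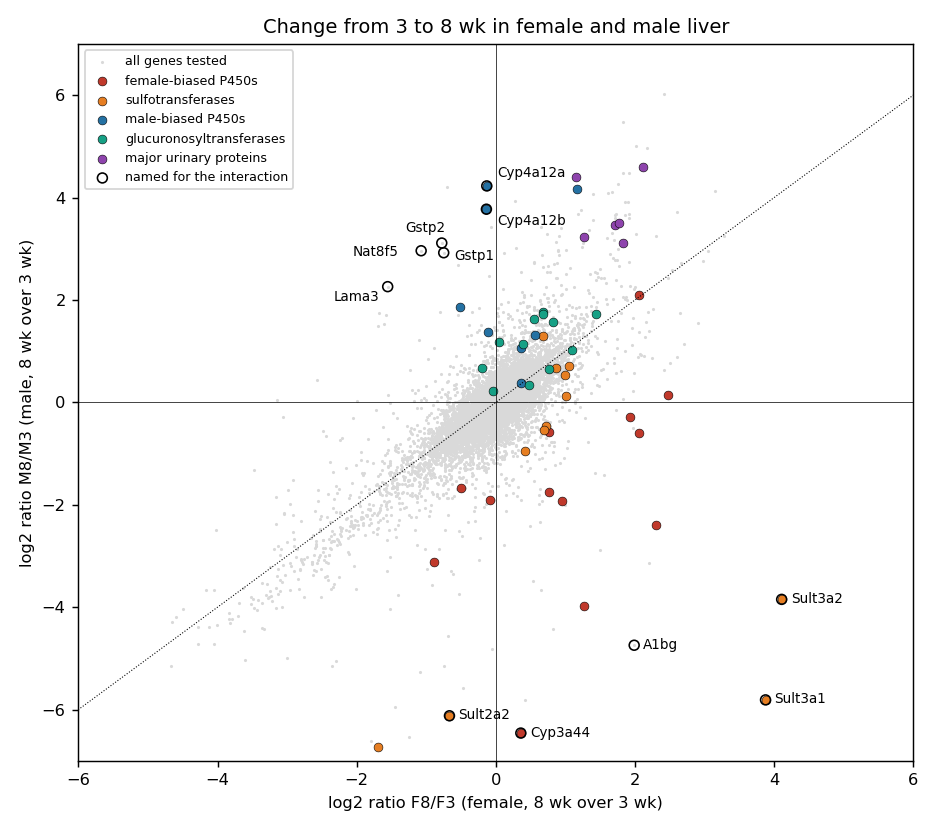
Log2 F8/F3 ratio (x axis) against log2 M8/M3 ratio (y axis) of bright named genes, with members of 5 gene lists in colour, the 11 genes named for the difference ringed and the dotted line marking equal change. Sult3a1, Sult3a2, A1bg, Sult2a2 and Cyp3a44 lie far below the line, and Cyp4a12a, Cyp4a12b, Nat8f5, Lama3 and the Gstp genes lie far above it.

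Among other P450s 5 of 40 rose and 1 fell, with a median of 0.30. Cyp26b1, which clears retinoic acid, rose by 1.74 with uneven ratios of 1.18 and 2.31 and was not called without array 2, and Cyp2f2, a lung and liver enzyme that activates naphthalene, rose by 0.95. Cyp2c55 fell, at -1.48, but not without array 2. Cyp1a2, Cyp2e1 and Cyp3a11, the main enzymes of caffeine, ethanol and many drugs, had ratios of 0.18, 0.42 and 0.29, and none of these was called. Without arrays 1 and 2 in turn, 4 and 2 members rose.

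The sulfotransferases, which conjugate steroids, phenols and amines with sulfate, held the highest ratios among called genes that F3 and F8 both measured. Of 12 bright members 8 rose and 0 fell by limma, with a median log2 ratio of 0.79. Below 0, 1 had an unadjusted p below 0.05, error-weighted averages called 2 down, and 7 other alternatives, among them normexp and a fit of 6 group means, called 1. Sult3a2 read 1,343 and 1,049 in F3 and 13,441 and 31,209 in F8, and Sult3a1, an amine sulfotransferase, read 7,796 and 3,968 in F3 and 63,987 and 104,325 in F8. The F8 signals were many times higher on both arrays, and more so on array 2, with log2 ratios of 3.32 and 4.89 for Sult3a2 and 3.04 and 4.72 for Sult3a1. The fitted values were 4.11 (SE 0.74, adjusted p = 0.0125) and 3.88 (SE 0.82, adjusted p = 0.0223), and both calls were lost without array 2, that of Sult3a1 also with slide as a block. In males these genes fell, at -3.85 and -5.81, which gave differences of 7.96 (SE 1.05, adjusted p = 0.0122) and 9.69 (SE 1.16, adjusted p = 0.00876). The genes are close relatives and their probes may share target, which was not tested. Sult1b1, a phenol sulfotransferase, rose by 0.87 on near-equal ratios of 0.79 and 0.94. Sult1e1, estrogen sulfotransferase, gave 0.71 and 1.27 and was not called. Sult2a1, the hydroxysteroid form, gave -2.34 and -1.04 and was not called with both arrays but was called down without array 2, while its male ratio was -6.72. 7 members had a higher female than male ratio. Without arrays 1 and 2 in turn, 4 and 2 members were called up.

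Glucuronosyltransferases, which attach glucuronic acid, also rose, 6 of 12 with none down regulated by limma or error-weighted averages (1 lay below 0 at an unadjusted p below 0.05) and a median of 0.61. Ugt3a1, which uses N-acetylglucosamine, read 4,083 and 4,127 in F3 and 11,112 and 11,270.4 in F8 and had a ratio of 1.45 (SE 0.075, adjusted p = 0.000159). Ugt2a3 rose by 1.09, and Ugdh, which makes UDP-glucuronate, by 0.82 (not called without either array). Ugt2b5 read 66,174 and 64,438 in F3 and 114,982 and 94,509 in F8, a ratio of 0.67 (SE 0.11, adjusted p = 0.00803) that was not called without array 1. Ugt2b1 had 0.16 and -0.079 in females and 1.18 in males, and Ugt2b1 and Ugt2b5 were among the 6 members with a lower female ratio. Relatives in the Ugt2b family may share target, which was not tested. With arrays 1 and 2 left out in turn, 3 and 7 members were called up.

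Of 20 glutathione S-transferases 3 rose: Gstt3 by 1.03, Gstm6 by 0.69 and Mgst3 by 0.65. Only Gstm6 was called without array 1 and none without array 2, and error-weighted averages called 3 members down. Gsta1, of the class alpha enzymes, had uneven ratios of 2.56 and 0.86 and was not called. Gstp1, of class pi, read 73,080 and 75,442 in F3 and 39,727 and 49,150.5 in F8, lower in F8 on both arrays but not called (-0.75 (SE 0.25, adjusted p = 0.106)), and its male ratio was 2.92. The other bright probe of Gstp1, at -0.72, was called down. Among other oxidases, reductases and esterases 4 of 37 rose and 2 fell, Adh7 (lost without array 1) and Hsd3b3 (lost without either array). Ces1f, a carboxylesterase, read 21,805 and 23,919.7 in F3 and 55,074 and 49,978 in F8 and rose by 1.20, and Aldh3a2, which oxidizes fatty aldehydes, rose by 0.78. Hsd3b5, a steroid reductase of male liver, gave 0.15 and 1.28 and was not called.

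Major urinary proteins, the pheromone carriers that liver secretes for excretion in urine, rose in all 6 bright members, with a median log2 ratio of 1.75. Mup20 (darcin) read 36,082 and 28,788 in F3 and 65,617 and 77,666 in F8, and Mup3 read 78,790.4 and 48,075 in F3 and 214,246 and 191,023 in F8. F8 was higher on both arrays for both, at 1.15 (SE 0.24, adjusted p = 0.0212) and 1.72 (SE 0.28, adjusted p = 0.00855), and the highest ratio was that of Mup5, 2.11 (SE 0.36, adjusted p = 0.0105). The median in males was 3.49, and the difference was called below 0 for 3 members, with a value of -3.26 (SE 0.34, adjusted p = 0.00609) for Mup20. These calls rest on both arrays: without array 1 only Mup6 was called, and without array 2 none, and that of Mup20 was also lost with slide as a block. The genes are nearly identical in sequence, so their probes may share target, which was not tested.

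Regulators were called near the share of all genes, 11.8%. Of 22 genes of the growth hormone and IGF axis 3 rose and 0 fell by limma, while 2 lay below 0 at an unadjusted p below 0.05, error-weighted averages and 4 other alternatives called 2 down and 3 others called 1. Cux2, a repressor of male-biased genes in female liver, read 94.6 and 139 in F3 and 605 and 460.0 in F8. F8 was several times higher on each array, with a ratio of 2.20 (SE 0.23, adjusted p = 0.00144), while males fell (-3.14) and the difference was 5.34 (SE 0.32, adjusted p = 0.00133). Trim24 and Tox, chromatin-linked factors, rose by 0.66 and 0.66, with differences from males of 1.76 (SE 0.12, adjusted p = 0.00177) and 2.59 (SE 0.18, adjusted p = 0.00177), and Tox lost its F8/F3 call without array 2. Igf1 and Ghr, the growth hormone receptor, had -0.12 and 0.23 and 0.36 and 0.14 and were not called. Socs2, a STAT5 target, gave -1.13 and -0.086, and Bcl6, a repressor of female-biased genes, gave 1.80 and 0.13, and neither was called. Among nuclear receptors and liver transcription factors 3 of 34 rose and 1 fell. Nr1i3 (CAR), the sensor of xenobiotics that controls Cyp2b genes, read 6,710.2 and 6,466 in F3 and 10,229 and 13,242 in F8, with a ratio of 0.82 (SE 0.083, adjusted p = 0.00135). Ppard, a fatty acid receptor, fell, with signals of 3,977 and 4,374 in F3 and 765 and 1,019 in F8 and a ratio of -2.24 (SE 0.23, adjusted p = 0.00153). Ppargc1a, the coactivator of gluconeogenesis, rose by 0.82 and was lost without either array. Hnf4a, the central hepatocyte factor, had 0.073 and -0.057.

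Genes of bile acid synthesis rose in part, 3 of 11 with a median of 0.24. Cyp7a1, the rate-limiting enzyme of the pathway, read 17,546 and 19,011 in F3 and 33,868 and 37,001 in F8, and Cyp8b1, which sets the share of cholic acid, read 1,642 and 1,509 in F3 and 2,769 and 2,643 in F8. F8 was above F3 on both arrays, at 0.95 (SE 0.21, adjusted p = 0.0242) and 0.78 (SE 0.14, adjusted p = 0.0108), but both calls were lost without either array. Slc27a5, which activates bile acids for conjugation, read 76,031 and 71,549.6 in F3 and 122,806 and 115,463 in F8 and had a ratio of 0.69 (SE 0.056, adjusted p = 0.000619) that kept its call without either array. Cyp27a1, of the alternative pathway, gave 0.30 and 0.60 and was not called. Of 23 transporters of bile acids and organic ions 4 rose and 1 fell. Slc10a2, the apical sodium-bile acid transporter, read 259.5 and 338 in F3 and 1,312 and 1,393 in F8, with a ratio of 2.19 (SE 0.12, adjusted p = 0.0002). Abcc3, a basolateral export pump, rose by 1.22, Slc22a5, the carnitine transporter, by 0.98, and Slco2b1 by 0.79. Slc22a7, an organic anion transporter, fell, at -0.78. The canalicular bile salt pump Abcb11 and the sinusoidal uptake carrier Slc10a1 had ratios of 0.47 and 0.14 and were not called.

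Of 37 genes of the urea cycle and amino acid metabolism 12 rose, 3 fell and 22 were not called, with a median log2 ratio of 0.33. Oat, ornithine aminotransferase, read 19,624 and 16,336 in F3 and 53,718 and 50,132 in F8, and F8 was higher on both arrays, at 1.54 (SE 0.065, adjusted p = 9.97e-05). Sds (serine dehydratase), Cth (cystathionine gamma-lyase) and Gls2 (liver glutaminase) rose by 1.24, 0.95 and 0.85. Asns, asparagine synthetase, read 643 and 1,007 in F3 and 144 and 152 in F8, far lower in F8 on both arrays, at -2.44 (SE 0.16, adjusted p = 0.000311). Psat1, of serine synthesis, had array ratios of -2.28 and -2.32 and a fitted -2.30 (SE 0.18, adjusted p = 0.000602), and Phgdh, the entry enzyme of serine synthesis, fell too, at -0.97. Another bright probe of Psat1 and of Phgdh was not called down. Asns differed between the sexes, with a male ratio of -0.65 and a difference of -1.79 (SE 0.23, adjusted p = 0.0105). Cps1, the first enzyme of the urea cycle, had 0.035 and -0.12 and was not called. Without arrays 1 and 2 in turn, 8 and 3 of the increases were called, and the decreases kept their calls.

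Lipid genes gave few calls, against 11.8% of all genes, and of 15 genes of gluconeogenesis and glycogen 2 rose and 1 fell. None of 22 genes of fatty acid synthesis was called by the limma model used throughout, in the full data or without either array, 6 had an unadjusted p below 0.05, 2 were called up with error-weighted averages, 2 up and 1 down with no fold threshold and 1 up in a fit of 6 group means, and the median was 0.037. Scd1, stearoyl-CoA desaturase, gave 2.07 and 0.31, Fasn, fatty acid synthase, gave 0.48 and -0.0069 and Srebf1, their regulator, gave -0.30 and -0.62. Of 23 genes of cholesterol synthesis and uptake Msmo1, a sterol demethylase, rose by 0.76 and none fell by limma or error-weighted averages (1 lay below 0 at an unadjusted p below 0.05). Of 35 genes of fatty acid oxidation Acot3, a peroxisomal thioesterase, rose, with signals of 1,892 and 2,632 in F3 and 6,258 and 6,348 in F8 and a ratio of 1.5 (SE 0.20, adjusted p = 0.00376), against -2.89 in males. Fgf21, the fasting hormone, fell at -1.34 (SE 0.30, adjusted p = 0.0289), a call lost without either array, and Cpt1a, which controls mitochondrial oxidation, had 0.56 without a call. Among genes of gluconeogenesis and glycogen Slc2a2 (GLUT2) and Ugp2 rose by 0.75 and 0.59, the first not without array 1, and Ppp1r3c, a glycogen-targeting subunit of protein phosphatase 1, fell, with signals of 7,089 and 8,589 in F3 and 4,142 and 4,953 in F8, at -0.78 (SE 0.057, adjusted p = 0.000429). Pck1 and G6pc, the key enzymes of glucose output, gave 0.59 and 0.42 and -0.43 and -0.79 and were not called.

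Clock genes changed in both directions, and the hour of collection is not given in the sources used here. Of 7 genes that peak by day in mouse liver 5 were higher in F8, with a median log2 ratio of 2.91. Nr1d2 and Nr1d1 (REV-ERB beta and alpha), repressors within the clock, read 699 and 815 in F3 and 7,415 and 7,243 in F8 and 42.8 and 33.4 in F3 and 331 and 293 in F8. F8 was higher on both arrays, at 3.28 (SE 0.24, adjusted p = 0.000434) and 3.04 (SE 0.21, adjusted p = 0.000356). Dbp, an output factor of the clock, read 1,522 and 713 in F3 and 12,016 and 5,623 in F8. Its level differed between arrays but its ratio hardly did (2.98 and 2.98), and the fitted value was 2.98 (SE 0.45, adjusted p = 0.00628). Tef and Per3 rose by 1.45 and 1.98, and like Dbp they were not called without either array. Of 7 genes that peak by night 2 fell. Cry1, a repressor of the clock, read 916 and 1,211 in F3 and 229.7 and 342 in F8, at -1.91 (SE 0.25, adjusted p = 0.00353), and Nfil3, which opposes Dbp, had -0.67, lost without either array. Arntl (BMAL1), the clock activator, gave -1.28 and -0.94, and Per2 gave -0.20 and -0.70, without a call. The male ratios were 2.96 for Nr1d1, 2.75 for Dbp and -1.42 for Cry1, and no difference from females was called for these 3 genes.

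Plasma protein genes were called unevenly from list to list, against 11.8% of all genes. Of 21 acute phase genes 4 rose and 1 fell. Those that rose were Hamp, hepcidin, the hormone that limits iron uptake, with signals of 87,238 and 44,232 in F3 and 223,045 and 195,018 in F8 and a ratio of 1.75 (SE 0.18, adjusted p = 0.00131), and Orm1, Orm2 and Orm3, the orosomucoids, by 0.80, 0.83 and 1.46. The decrease was that of A2m, alpha-2-macroglobulin, which faded in F8 and was at least 1.58-fold lower, though not called without array 1. Saa1 and Hp gave 0.83 and -0.09 and -0.98 and -0.027 and were not called. None of 21 complement genes or 12 serpin and hormone-binding genes was called at 1.5-fold by limma, 10 and 5 had an unadjusted p below 0.05, and error-weighted averages called none either, while with no fold threshold 4 complement genes were called up and 3 down and 1 serpin or hormone-binding gene each way. Their medians were 0.038 and 0.077, and without array 1 a single complement gene was called up. Of 16 apolipoprotein genes Apoa4 rose by 1.19 (not without array 2) and Apoc3, an inhibitor of lipoprotein clearance, by 0.63, while Apob and Apoe had 0.25 and 0.40. Of 20 genes of metallothioneins and iron 4 fell and 0 rose by limma, while 7 lay above 0 at an unadjusted p below 0.05 and 2 were called up both with error-weighted averages and with no fold threshold. Tfrc, the transferrin receptor, read 2,051 and 3,858 in F3 and 912 and 1,069 in F8, at -1.51 (SE 0.24, adjusted p = 0.00705), a call lost without array 2, and Alas1, which starts heme synthesis, had -0.93, lost without array 1. Mt1 and Mt2, the metallothioneins, had high but uncalled ratios of 1.96 and 1.65 and 2.98 and 1.96.

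Immune and stress genes showed small groups. MHC class II genes, which present antigen on dendritic cells, macrophages and B cells, rose in 3 of 7, with a median of 0.80. H2-Ab1 read 2,492 and 2,591 in F3 and 5,445 and 4,106 in F8 and Cd74, the invariant chain, read 2,516 and 2,315 in F3 and 4,909.8 and 4,067 in F8, both higher in F8, at 0.90 (SE 0.069, adjusted p = 0.000528) and 0.89 (SE 0.11, adjusted p = 0.00275). H2-Eb1 rose by 1.01 but was lost without either array, and H2-Aa gave 1.09 and 0.51 without a call. Of 23 interferon response genes only Cxcl10, a T cell chemokine, fell (-0.95, lost without either array), while Isg15 had -0.29. Of 21 heat shock and endoplasmic reticulum (ER) stress genes 8 fell and 3 rose, with a median of -0.53. Hspa5 (BiP), the ER chaperone, read 122,987 and 168,261 in F3 and 62,779 and 77,185 in F8, and Dnajb9, its cofactor, read 12,544 and 24,404 in F3 and 5,567 and 8,553 in F8. F8 was lower on both arrays, at -1.05 (SE 0.17, adjusted p = 0.00744) and -1.34 (SE 0.21, adjusted p = 0.00764), but neither was called without array 2. Hspa8, a constitutive chaperone, had -0.74 (SE 0.085, adjusted p = 0.00221) and kept its call without either array. Trib3, a pseudokinase induced by stress, rose by 1.77 on ratios of 2.51 and 1.03, and was not called without array 1. Without arrays 1 and 2 in turn 3 and 2 decreases and 0 and 1 increases were called.

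Genes of general cell function gave no call at 1.5-fold in limma or with error-weighted averages: none of 42 ribosomal protein genes (median -0.22) and none of 36 respiratory chain genes (median 0.049), in the full data or without either array. An unadjusted p below 0.05 was reached by 34 and 12 of them, with log2 ratios of -0.42 to 0.10 and -0.33 to 0.29 over all members. Of the ribosomal protein genes 41 lay below 0 and 24 were called down with no fold threshold, and of the respiratory chain genes 11 lay below 0 and with no fold threshold 6 were called up and 1 down. Rplp0 gave -0.10 and -0.34 and Cox4i1 0.19 and 0.023. Xist, the RNA of X inactivation, was bright in both female groups, with signals of 563 and 847 in F3 and 371 and 752 in F8, and was not called, and 4 Y chromosome genes were not bright in either.

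Other genes stood at the ends of the range. Neil3, a DNA glycosylase, read 372 and 505 in F3 and 24.1 and 25.8 in F8, and Esco2, an acetyltransferase of cohesin, read 639.7 and 927 in F3 and 52.0 and 43.2 in F8. Both lay far lower in F8, at -4.12 (SE 0.15, adjusted p = 7.00e-05) and -4.02 (SE 0.22, adjusted p = 0.000178). Pbk (a mitotic kinase), Depdc1a, Ska1 (a kinetochore subunit), Shcbp1 and Ckap2l (a spindle protein) followed, at -3.83, -3.82, -3.70, -3.63 and -3.52. Knl1, a kinetochore scaffold, faded in F8 and was at least 2.88-fold lower. Pnliprp1, a pancreatic lipase-related protein, read 299 and 306 in F3 and 16.5 and 33.4 in F8, at -3.69 (SE 0.23, adjusted p = 0.000255), and Bhlha15 (MIST1), a factor of secretory cells, had -3.48, a call lost without either array. Of 11 bright genes on a list of exocrine pancreas markers, drawn up after these values were seen, 2 fell, Pnliprp1 and Cela1 (-0.83, lost without either array). The summed signals of that list were 15,068 and 14,123 in F3 and 16,022 and 17,559 in F8.

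At the upper end, Dct, dopachrome tautomerase of the melanin pathway, read 6,297 and 5,478 in F3 and 33,518 and 33,342 in F8, 5.69-fold higher in F8 at 2.51 (SE 0.18, adjusted p = 0.000382). A1bg, a plasma glycoprotein, read 24,387 and 21,861 in F3 and 86,035 and 97,628 in F8 and had a ratio of 1.99 (SE 0.23, adjusted p = 0.00216), and its male ratio was -4.74, a difference of 6.73 (SE 0.32, adjusted p = 0.000836). Bmf, a proapoptotic BH3 protein, rose by 2.53 (not called without array 1) and Nox4, an NADPH oxidase, by 2.42 (not called without either array). Sun3, of the nuclear envelope, Dnajb11, a cofactor of BiP, and Prom2, a membrane glycoprotein, rose by 2.65, 2.60 and 2.42, the last not without array 2. Genes that emerged from background in F8 had small bounds: Trhde, which degrades thyrotropin-releasing hormone, was at least 1.82-fold higher, and Klra8, Ankrd55, Olfr677 and Vtcn1 at least 1.5, 1.44, 1.40 and 1.39-fold higher, none of these 4 called both without array 1 and without array 2. Lama3, a laminin chain, fell in females at -1.55 (SE 0.33, adjusted p = 0.0223), lost without either array, against 2.26 in males.

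F8 was also hybridized against F4, females at 4 wk, on 2 arrays that used the same F8 pools, so both comparisons share those pools and their values are only set side by side. Over the same bright genes 2.27% were up and 3.8% down regulated in F8/F4. The 54 mitotic genes had medians of -2.61 from 3 wk and -2.50 from 4 wk, and all were down regulated in both. DNA replication genes had -1.10 and -0.69. Neutrophil genes had -2.64 and -1.04, and genes of the fetal and early liver had -0.95 and -0.56. Sult3a1 had 3.88 from 3 wk and 0.046 from 4 wk, A1bg 1.99 and -0.10, and Cux2 2.20 and 0.56. Major urinary proteins had 1.75 and 1.61, and female-biased P450s had 0.96 and 0.38. The differences between F8/F3 and F8/F4 were not tested.

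**Figure D5:**
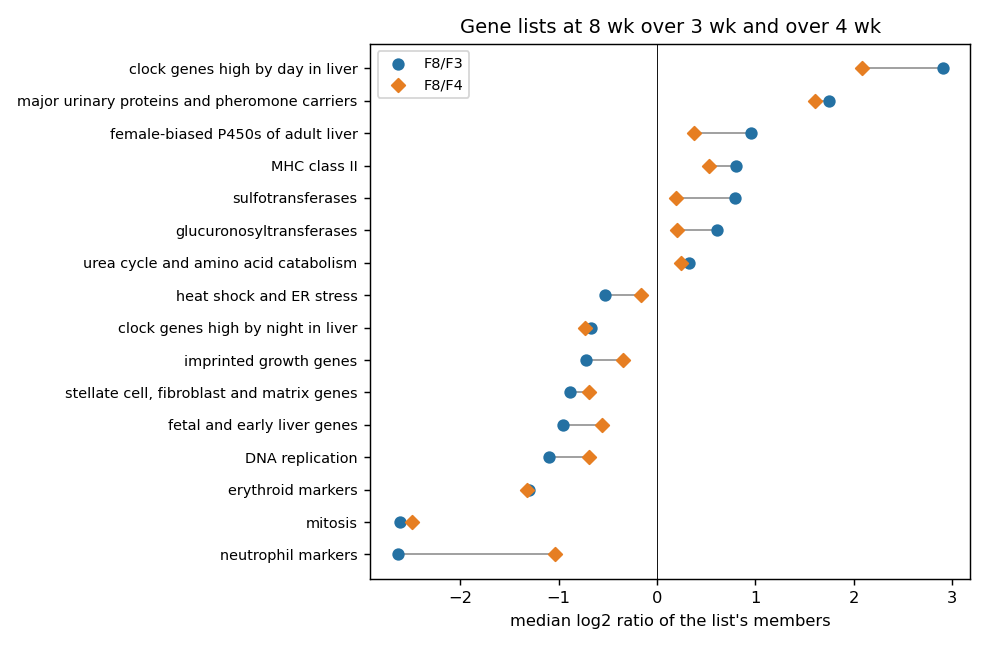
Median log2 ratio of the bright members of 16 gene lists (x axis) in F8/F3 (blue circles) and F8/F4 (orange diamonds), which share the F8 pools. The medians of mitotic genes are -2.61 and -2.50, whereas those of neutrophil genes are -2.64 and -1.04.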

How the data were processed

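Female and male CD-1 liver RNA was pooled from 5 mice per pool at 3 wk and 6 per pool at 4 and 8 wk, with 2 independent pools per group, and pairs of pools were hybridized to Agilent 44k whole mouse genome arrays, on 14 arrays in 7 comparisons with 2 arrays each and exchanged dyes. Signal intensities and log10 ratios (red over green) were deposited by the authors as Agilent Feature Extraction 10.7.1.1 wrote them, background-subtracted and dye-normalized within each array (linear and LOWESS). The series' table of log10 values was the same, with a largest difference of 0.

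Ratios were turned to log2 F8/F3 by the channel labels. Non-uniform spots were left out (10 and 6 on F8/F3 arrays 1 and 2), and spots of a probe were averaged to 39,429 probes, of which 26,055 took a gene name (19,751 genes) from the accession in RefSeq and 13,374 had no name and were counted only. The probe with the highest mean signal stood for a gene. As a check of the labels, F8/F3 was set against the same ratio taken around the loop of comparisons that share its pools: over 20,729 probes r was 0.957 and 0.958 for replicates 1 and 2 as labelled, and 0.337 and 0.290 with F8/F3 turned. The study's methods describe the dyes of replicate 1 the other way round from the labels for M3/F3. As labelled, Xist was lower in males, at -5.32 in M3/F3 and -6.65 in M8/F8 (log2).

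limma 3.58.1 (R 4.3.3) was fitted to all 14 arrays with 1 coefficient for each comparison and 1 dye term, so that the 2 F8/F3 arrays borrow their error from the others and a difference between dye orientations that all arrays share does not enter the SE. P-values were adjusted by Benjamini-Hochberg over all probes and the 7 comparisons, and for F8/F3 minus M8/M3 over all probes. A call needed an adjusted p below 0.05, a ratio above 1.5 or below 0.667 and at least 1 of both groups well above background on both arrays. The study's own error model was not available here. Where neither array had a group well above background, the fold is a lower bound against the dimmest signal well above background, after normexp correction (offset 50), loess and Aquantile scaling.

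Named genes were the 12 highest and 12 lowest called ratios among genes bright in both groups, the 5 largest bounds and the 6 largest differences from M8/M3 in each direction, and within each list the 4 called members with the largest changes and up to 3 best known ones. Gene lists and their members were chosen with earlier results of these data known, and the exocrine pancreas list was added later. Genes named only under other observations were chosen after their values were seen. Some genes that these rules name are not reported here. The script was tested on simulated data. Error-weighted averages (an alternative) used the software's error of each log ratio and an unadjusted p of 0.0001. The other alternatives changed the background correction, centring, dye and slide terms, the arrays in the fit, thresholds, filters and probes. Median background-subtracted signals on F8/F3 arrays 1 and 2 were 138 and 167 in red and 84.4 and 98.6 in green, and the number of arrays limits the precision. Arrays of the M8/M4 and M4/F4 comparisons entered the fit only, and those of M8/F8 and M3/F3 served the fit and the checks.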

Additional observations from a re-analysis of the deposited data

Results flagged for a closer look

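Genes are given here because their F8/F3 and M8/M3 log2 ratios differed by limma's test of the difference. Counted with unnamed probes, the female ratio was the higher for 368 genes and the lower for 422. Leaving out 1 of the 4 arrays of both comparisons in turn gave 146 to 193 and 154 to 198.

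Among genes well above background in all 4 groups, the female ratio exceeded the male one by 9.69 for Sult3a1, 7.96 for Sult3a2, 6.82 for Cyp3a44, 6.73 for A1bg and 5.45 for Sult2a2 (log2). The Sult2a2 spot was non-uniform on array 2 of M8/M3, so its male ratio rests on 1 array. The female ratio lay below the male one for Cyp4a12a (-4.36), Nat8f5 (-4.03), Cyp4a12b (-3.91), Gstp2 (-3.89), Lama3 (-3.81) and Gstp1 (-3.67). Taken from the M3/F3 and M8/F8 arrays, all of scan day 1, the differences were 8.50, 5.90, 6.85, 6.10 and 4.75 for Sult3a1, Sult3a2, Cyp3a44, A1bg and Sult2a2 and -3.80, -3.93, -3.17, -3.87, -3.82 and -3.25 for Cyp4a12a, Nat8f5, Cyp4a12b, Gstp2, Lama3 and Gstp1, and that of Cyp4a12b was not called (adjusted p = 0.0763). With each of the 4 arrays left out in turn, Cyp3a44, A1bg, Gstp1 and Gstp2 were called each time, as was Sult2a2 in the 3 fits that give it a value. Sult3a1 was not called without either M8/M3 array, Sult3a2, Cyp4a12a and Cyp4a12b were not called without F8/F3 array 2 or either M8/M3 array, Lama3 was not called without either F8/F3 array or M8/M3 array 1, and Nat8f5 was not called without M8/M3 array 1.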

How the results depend on the processing

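Against 1,284 genes up and 1,284 down regulated in F8/F3 and 368 and 422 with a higher or lower F8/F3 than M8/M3 ratio, normexp with loess gave 836 increases and 182 lower ratios. The F8/F3 arrays alone (with the M8/M3 arrays for the difference) gave 0 in all 4 counts by limma, although 1,168, 1,227, 689 and 668 had an unadjusted p below 0.05, and error-weighted averages gave 1,426, 1,377, 391 and 437. A fit of 6 group means gave 925 higher and 883 lower ratios. An unadjusted p of 0.0001 gave 496, 672, 135 and 141, no fold threshold 3,715, 3,470, 672 and 776, and a ratio above 2 or below 0.5 446, 642, 177 and 263. Leaving out 1 array at a time gave 840 to 893, 895 to 1,017, 146 to 193 and 154 to 198. Of 749 named increases and 985 named decreases, 469 and 709 were called without array 1, and 430 and 653 without array 2. The other alternatives stayed within 1.5 times the main counts, those chosen after seeing the data (a fit on bright probes alone, centring on their median, the difference of the sexes within scan day 1) included.

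The replicate number as a block gave 1,283, 1,280, 420 and 428. Within a comparison the number coincides with the dye. Deviations of same-numbered arrays correlated with those of F8/F3 at 0.22 to 0.54 in the 3 comparisons with its dye orientation and at -0.47 to 0.03 in the 3 with the opposite one, and M8/M4, M8/M3 and M4/F4, which share no pool with F8/F3, gave 0.30, 0.22 and -0.30. With the block 721 of 749 named increases and 956 of 985 named decreases kept their calls. Of genes named here Orc1, Afp, Ppargc1a, Per3, Nfil3, Vpreb3, Sox9, Prom1 and Olfr677 lost their F8/F3 call with the replicate block and with slide as a block, and Grb10, Cyp2b9, Cyp26b1, Sult3a1, Mup20, Fgf21, Trib3 and Nox4 with slide as a block.

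Genes named by rule, or best known or most changed within a list, gave 5,099 values over all alternatives. Of these values, 4,553 stayed on their side of the threshold, 471 lost and 52 gained a call, 4 called ones reversed and 19 uncalled ones changed sign. The reversals among these values came from other probes of Cdkn1a (0.069), E2f7 (0.15) and Plagl1 (0.20 and 0.14), and the cause was not tested. Pole, whose probes were called in opposite directions, lay outside this set. Over all genes, 3 had bright probes called both up and down. Dim signals limited 17 increases and 87 decreases to bounds.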

Other observations

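Genes outside the lists, chosen after their values were seen, were called as well. Among the decreases were Fanci and Fanca, which act in DNA crosslink repair, with log2 F8/F3 ratios of -3.47 and -2.35. Mthfd2, a mitochondrial enzyme of folate metabolism, had -2.22. Slc38a5, an amino acid transporter, had -3.0, Ces4a, a carboxylesterase, -3.15, Chil3, a chitinase-like protein of macrophages, -2.86 and Hsd3b1, a steroid dehydrogenase, -2.30. Among the increases were Slc13a2, a dicarboxylate transporter, at 2.30, Upp2, uridine phosphorylase, at 2.06, Nnmt, which methylates nicotinamide, at 1.98, and Mfsd2a, a lysophospholipid transporter, at 1.97. Tiam2, an exchange factor of Rac, had 2.26, Serpinb1a, a protease inhibitor, 2.04, Corin, a serine protease, 1.80, Slc22a4, an organic cation transporter, 1.73, Ces2b, a carboxylesterase, 1.5 and Notch1, the receptor, 1.12.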
